A study of Mus musculus with 6 samples.

Results

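The transcription factor genes Rfx1, Rfx2, Rfx3, Rfx4, Foxj1, Mybl1, Spz1, Tcfl5 and Nr6a1, which act in spermatocytes and spermatids, were compared in Mgat1 cKO and control germ cells at 23 dpp (days post partum). They were found as the genes whose symbol stood alone on a probe set of the deposited table, which gave 9 of 23152 genes and 128 of 269751 probe sets. Mgat1 encodes the glycosyltransferase that starts complex N-glycan synthesis. The Mgat1 cKO germ cells came from Mgat1[F/F]:Stra8-iCre males (strain FVB), in which iCre is driven by the Stra8 promoter in spermatogonia and removes the floxed gene there and in all descendant germ cells. Control germ cells came from Mgat1[F/F] males of the same strain and age, so that both genotypes carried the floxed alleles. For each genotype, 3 arrays of the type Mouse Gene 2.0 ST received aliquots of 1 RNA pool made from 6 mice. The spread between arrays, and every p-value, therefore covers aliquots of a pool and not mice, and 3 arrays against 3 cannot go below a two-sided exact permutation p of 0.10.

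RFX proteins bind the X-box, a paired DNA motif found upstream of many cilium genes, and the sperm tail is built on an axoneme like that of a motile cilium. FOXJ1 is the forkhead factor that directs the motile cilium program. A-MYB, the product of Mybl1, switches on meiotic and piRNA genes in pachytene spermatocytes of the mouse, whereas SPZ1 and NR6A1 (germ cell nuclear factor) are known as factors of the testis and, for NR6A1, of round spermatids.

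Values are RMA values on a log2 scale, so a difference of 1 is 2-fold, and a gene value is the mean over all its exon level probe sets. Levels were set side by side within a gene only, since probe sets differ in their response. The arrays had medians of 6.85 to 6.87 and correlated at 0.994 to 0.995 within Mgat1 cKO, at 0.996 within control and at 0.979 to 0.980 between genotypes. Mgat1 itself, over 12 probe sets, had gene values of 6.35, 6.10 and 6.45 in Mgat1 cKO arrays and 6.17, 6.44 and 6.33 in control arrays, which overlapped. Its probe set 17248953 was lower in Mgat1 cKO, at 5.63 ± 0.26 against 6.64 ± 0.087 in control (SD, n = 3 each), with a fall by 1.01 on the log2 scale (limma, adjusted p = 0.0367). Of the 12 probe sets, 7 had a higher and 5 a lower mean in Mgat1 cKO, and no other was called. Probe set 17248948 was higher by 0.41 without overlap of the arrays, and was not called (limma, adjusted p = 0.264). Which Mgat1 probe sets lie in the deleted part is not given in the sources used here, so the gene value does not check the genotype. Spermatocyte markers averaged 9.54 to 9.66 in Mgat1 cKO arrays and 9.71 to 9.80 in control arrays, with 0 of 9 called by limma in either direction.

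Of the 9 genes, limma called 4 higher in Mgat1 cKO (Spz1, Foxj1, Rfx1 and Rfx3) and 0 lower, a call being an adjusted p under 0.05. At an unadjusted p under 0.05, 0 were lower as well, and Nr6a1 joined the higher ones. The share of all genes at that threshold is not given here. Over all genes, 6.07% were called higher and 2.35% lower. Spz1 differed most, by 2.65, followed by Foxj1 at 0.90, Rfx1 at 0.66 and Rfx3 at 0.41. Only Spz1 also differed by over 2-fold, which 2.53% of all genes did upwards and 0.0346% downwards with a call. With probe sets of a mean under 5 left out, Foxj1 differed by 1.15 and so by over 2-fold as well. Nr6a1, Rfx2, Rfx4, Tcfl5 and Mybl1 were not called, with differences between −0.10 and 0.22. The median difference was 0.22 over the 9 genes and −0.05 over all genes. The Mgat1 cKO arrays all lay above the control arrays in 7 of the 9 genes and below them in Mybl1, and overlapped with them in Tcfl5. Over all genes, 11.2% had such a separation upwards and 20.1% downwards.

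**Figure D1:**
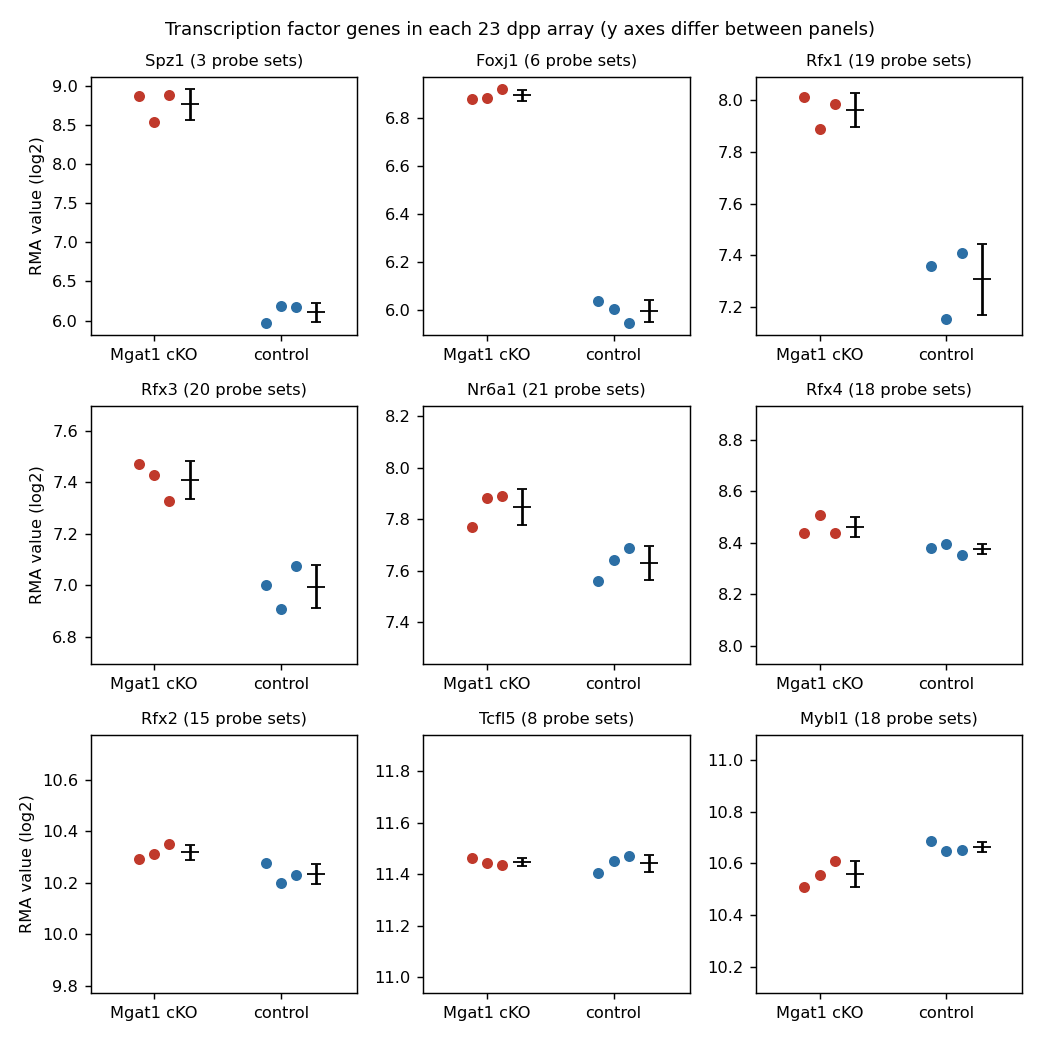
Gene values (RMA, log2) of the 9 transcription factor genes on each array, with Mgat1 cKO in red on the left and control in blue on the right of each panel. Bars give the mean and SD of 3 arrays, and the y axis differs between panels. The genotypes are far apart for Spz1 (8.76 in Mgat1 cKO, 6.11 in control) and close for Rfx2, Rfx4, Tcfl5 and Mybl1.

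RefSeq promoter entries (GRCm38.p6) were at hand for 7 of the 9 genes, and the 250 bases before the start of transcription are shown for 3 genes that were higher, Spz1, Rfx1 and Rfx3, and for Rfx2, which was not called but shares a motif with Spz1. Spz1 lies on the minus strand at chr13:92576233-92576482, Rfx1 on the plus strand at chr8:84066586-84066835, Rfx3 on the minus strand at chr19:28011167-28011416 and Rfx2 on the minus strand at chr17:56831009-56831258. The sequences run 5′ to 3′ towards the start, and capitals mark a match to any of 6 motifs searched on both strands.
Spz1: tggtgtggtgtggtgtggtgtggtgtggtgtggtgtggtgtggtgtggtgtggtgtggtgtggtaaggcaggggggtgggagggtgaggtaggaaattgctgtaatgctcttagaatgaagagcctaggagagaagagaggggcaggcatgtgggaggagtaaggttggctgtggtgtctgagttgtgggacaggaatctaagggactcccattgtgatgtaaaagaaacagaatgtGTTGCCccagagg
Rfx1: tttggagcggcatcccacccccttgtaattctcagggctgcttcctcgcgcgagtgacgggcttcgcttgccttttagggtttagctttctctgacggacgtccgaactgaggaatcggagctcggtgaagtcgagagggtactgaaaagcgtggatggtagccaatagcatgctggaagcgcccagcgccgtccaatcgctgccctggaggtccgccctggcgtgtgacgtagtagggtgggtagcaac
Rfx3: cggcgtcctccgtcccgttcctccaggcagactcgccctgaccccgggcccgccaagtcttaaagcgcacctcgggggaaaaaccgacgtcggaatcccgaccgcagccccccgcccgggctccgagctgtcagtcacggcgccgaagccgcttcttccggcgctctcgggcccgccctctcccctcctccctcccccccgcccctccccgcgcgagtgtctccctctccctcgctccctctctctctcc
Rfx2: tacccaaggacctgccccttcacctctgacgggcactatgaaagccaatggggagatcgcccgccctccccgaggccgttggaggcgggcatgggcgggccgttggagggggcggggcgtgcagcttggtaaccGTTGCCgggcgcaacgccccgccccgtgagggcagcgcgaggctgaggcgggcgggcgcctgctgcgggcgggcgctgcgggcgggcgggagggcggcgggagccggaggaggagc

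The letters GTTGCC, the core of 1 arm of an X-box, stood 13 bases before the start in Spz1 and 116 bases before it in Rfx2. These letters occur in 10.4% of 32851 promoters of that length. The paired X-box, GTNNCC and GGNNAC with 2 bases between them (1.57% of promoters), the E-box CACGTG (6.02%) and the forkhead motif GTAAACA (3.17%) matched none of the 7 genes' windows. The MYB motif CAGTTG (11.1%) stood 140 bases before the start in Tcfl5 and 40 bases before the second listed start of Rfx4. That Rfx4 window also held AAGGTCA, the core NR6A1 motif (4.08%), 179 bases before the start, and the first listed Nr6a1 window held it 91 bases before the start. Rfx1 and Rfx3 had no match to the 6 motifs, and the GC content of the windows was 53.6% in Spz1, 59.2% in Rfx1, 72.8% in Rfx3 and 76% in Rfx2. A match to such short letters is a description of the window and not a binding site.

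Among the RFX genes, Rfx1 and Rfx3 were called higher in Mgat1 cKO, and Rfx2 and Rfx4 were not called. Rfx1, the founding member of the family and a widely expressed factor, had gene values of 8.02, 7.89 and 7.99 in Mgat1 cKO arrays and 7.36, 7.15 and 7.41 in control arrays. All Mgat1 cKO arrays lay above all control arrays, and replicate 2 was the lowest in both genotypes. The means were 7.96 ± 0.067 in Mgat1 cKO and 7.31 ± 0.14 in control (SD, n = 3 each), a difference of 0.66 (SE 0.084, 95% interval 0.46 to 0.85, 1.58-fold, limma adjusted p = 0.00155). Rfx3, needed for cilium growth in the mouse, had 7.47, 7.43 and 7.33 in Mgat1 cKO arrays and 7.00, 6.91 and 7.07 in control arrays. These again did not overlap, and the gap between the nearest arrays was smaller than in Rfx1. Rfx3 means were 7.41 ± 0.073 in Mgat1 cKO and 6.99 ± 0.083 in control (SD, n = 3 each), with a difference of 0.41 (SE 0.072, 95% interval 0.25 to 0.58, 1.33-fold, adjusted p = 0.00923). The Rfx3 call was lost when the median over probe sets was used in place of the mean (difference 0.40, adjusted p = 0.252).

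Rfx2 is the family member required for spermatid maturation in the mouse. It had gene values of 10.29, 10.31 and 10.35 in Mgat1 cKO arrays and 10.28, 10.20 and 10.23 in control arrays. The arrays of the genotypes were close to each other without overlap, and the difference of 0.08 (SE 0.059, 95% interval −0.05 to 0.22) was not called (adjusted p = 0.423). Rfx4, which has testis and brain transcripts, had 8.44, 8.51 and 8.44 in Mgat1 cKO arrays and 8.38, 8.39 and 8.35 in control arrays. Its arrays did not overlap either, and its difference of 0.09 (SE 0.058, 95% interval −0.05 to 0.22) was not called (adjusted p = 0.414) and was −0.10 with the median over probe sets. Whether Rfx1 and Rfx3 differ from Rfx2 and Rfx4 in their response was not tested.

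Single probe sets were each tested across all probe sets of the table. Their positions within the genes are not given in the sources used here. Of the 128 probe sets of the 9 genes, limma called 10 higher and 0 lower, whereas 1.87% of all probe sets were called higher and 0.180% lower. At an unadjusted p under 0.05, 1 was lower, in Mybl1. Higher at that threshold were 12 in Rfx1, 8 in Rfx3, 6 in Nr6a1, 4 in Foxj1, 3 in Spz1 and 1 in Rfx4. The share of all probe sets at that threshold is not given here, so these counts have no background. Of the 10 called probe sets, 9 belonged to the 4 called genes, which hold 48 probe sets, and 1 of 80 to the other genes. A gene value is the mean over these same probe sets, so this split is not independent of the gene calls. The 10 probe sets with a mean under 5 (dim) held 0 of the calls. The Mgat1 cKO arrays all lay above the control arrays in 45 of the 128, against 8.66% of all probe sets, and below them in 5, against 10.8% of all.

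Rfx1 has 19 probe sets, of which 16 had a higher and 3 a lower mean in Mgat1 cKO. Probe set 17503078 read 11.09 ± 0.11 in Mgat1 cKO arrays and 9.82 ± 0.13 in control arrays (SD, n = 3 each), a difference of 1.27 (SE 0.12, adjusted p = 0.00488). Probe sets 17503083 and 17503090 were also called, with differences of 1.40 (adjusted p = 0.00989) and 1.49 (adjusted p = 0.0126). The array values of all 3 were far apart between genotypes, such as 8.75, 8.29 and 8.41 in Mgat1 cKO against 6.73, 7.14 and 7.11 in control for 17503090. The call of 17503078 was kept with each array left out in turn (adjusted p = 0.0186 to 0.0311). That of 17503083 was lost without Mgat1 cKO replicate 1 (adjusted p = 0.0565) or control replicate 1 (adjusted p = 0.0562), and that of 17503090 without Mgat1 cKO replicate 3 (adjusted p = 0.0561) or control replicate 3 (adjusted p = 0.0509). Opposite in sign were 17503070 at −0.21, which is dim, 17503084 at −0.19 and 17503087 at −0.01, and the genotypes overlapped in each. A test of whether the probe sets of a gene differ among themselves (limma diffSplice) called Rfx1 (F = 4.06, adjusted p = 0.000271), as it did 7.44% of genes with several probe sets. It assumes that the probe sets of a gene vary alike, and dim ones vary more. On simulated data it called too many unchanged genes, so its unweighted adjusted p-values, here and for Rfx4 and Foxj1, are likely too small. With weights that follow the level, the Rfx1 call was kept (adjusted p = 1.98e-06, against 7.00% of genes called).

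Of the 20 probe sets of Rfx3, 0 were called, with 1.87% of all probe sets called higher. On average 16 were higher, and 8 had an unadjusted p under 0.05, a count with no background here. The largest difference was 0.90 in probe set 17363715 (SE 0.20, adjusted p = 0.127), with 8.24, 7.65 and 7.82 in Mgat1 cKO arrays and 7.06, 6.75 and 7.20 in control arrays. Opposite in sign were 17363713 at −0.19 and 17363724 at −0.03, both dim, 17363719 at −0.09 and 17363725 at −0.02. The Rfx3 probe sets were not found to differ among themselves (diffSplice adjusted p = 0.464).

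In Rfx4, 1 of 18 probe sets stood apart. Probe set 17236058 read 6.96, 7.70 and 7.31 in Mgat1 cKO arrays and 5.95, 5.84 and 6.00 in control arrays. It was higher in Mgat1 cKO by 1.40 (SE 0.20, adjusted p = 0.0258), while the other probe sets differed by −0.44 (17236051, dim) to 0.23 and 7 of the 18 had a lower mean in Mgat1 cKO. The call of this probe set was lost without Mgat1 cKO replicate 3 or control replicate 1, 2 or 3, with adjusted p-values up to 0.116. The diffSplice call of Rfx4 (adjusted p = 0.00965) was lost with level weights (adjusted p = 0.228), and without Mgat1 cKO replicate 2 (adjusted p = 0.239) or control replicate 1 (0.219) or 2 (0.204). In Rfx2, 0 of 15 probe sets were called by limma or had an unadjusted p under 0.05, and their differences ran from −0.09 (17346364) to 0.22 (17346352).

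**Figure D2:**
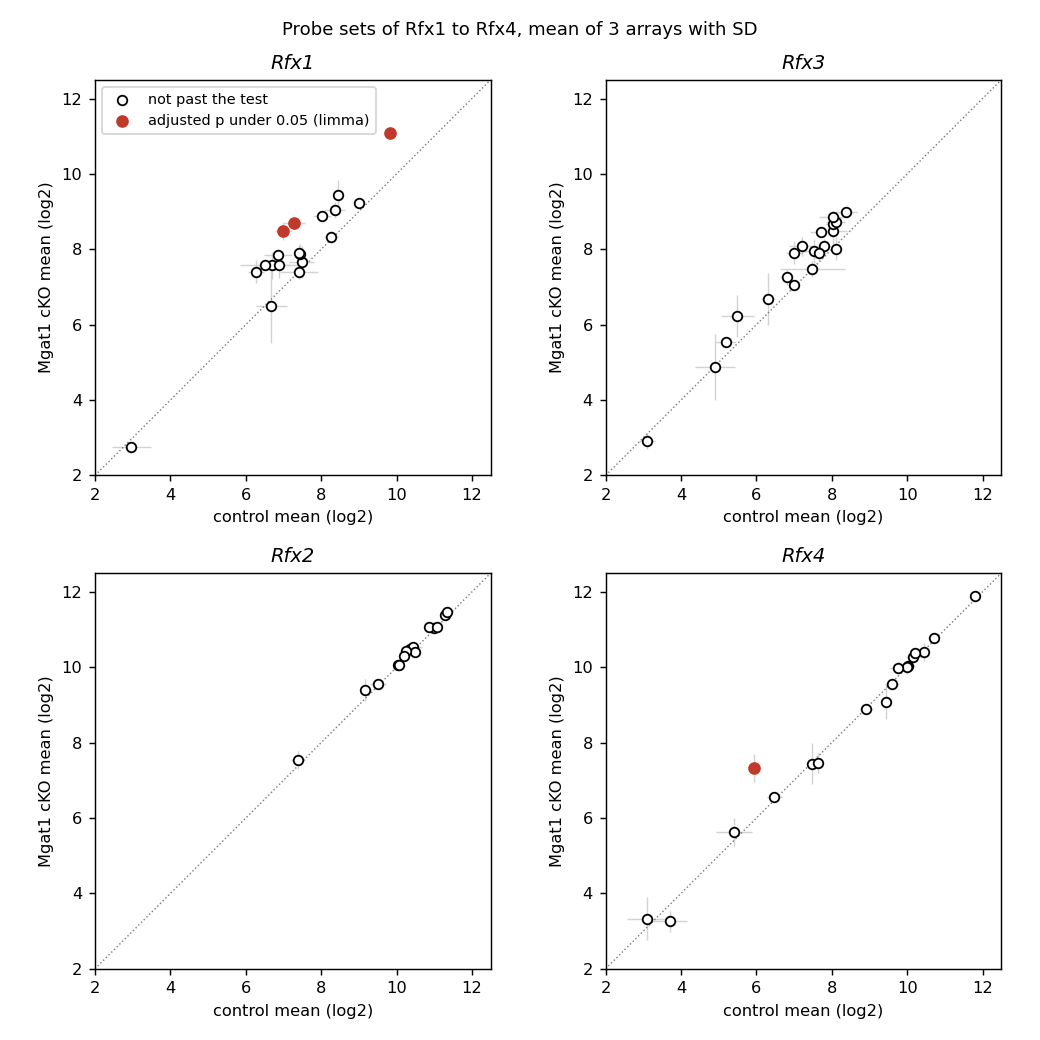
Mean level (RMA, log2) of each probe set of Rfx1, Rfx3, Rfx2 and Rfx4 in Mgat1 cKO arrays (y) against control arrays (x), with the SD of 3 arrays as grey lines and equality as the dotted line. Red points had an adjusted p under 0.05 (limma). Most Rfx1 and Rfx3 points lie above the line, Rfx2 points lie on it, and 1 Rfx4 point stands above it.

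Other RFX genes and cilium genes gave the surroundings of these values. Of 6 other RFX family genes and partners, limma called 1 higher and 0 lower (1 higher and 2 lower at an unadjusted p under 0.05). The median difference was −0.09, with 6.07% of all genes called higher. Called higher was Rfx6, known as a factor of pancreatic islet development. It was dim at 4.92 ± 0.061 in Mgat1 cKO arrays and 4.47 ± 0.18 in control arrays (SD, n = 3 each), a difference of 0.45 (adjusted p = 0.0263). Rfx7 differed by −0.18 (adjusted p = 0.158) and Rfxap, a partner of RFX5 at MHC class II promoters, by −0.09 (adjusted p = 0.435). Of 30 measured cilium assembly genes, limma called 2 higher and 0 lower (3 higher and 1 lower at an unadjusted p under 0.05). The median difference was 0.00, with 6.07% of all genes called higher. The genes called were Kif17, a kinesin motor, at 7.45 ± 0.094 in Mgat1 cKO and 5.93 ± 0.12 in control (difference 1.52, adjusted p = 8.2e-06), and Bbs5, a subunit of the BBSome, with a difference of 0.52 (adjusted p = 0.00791). The intraflagellar transport genes Ift20 and Rabl5 (Ift22) differed by −0.17 (adjusted p = 0.133) and 0.01 (adjusted p = 0.955). Hist1h1t, the testis histone H1 gene, and Gtf2a1l, the germ cell TFIIA subunit, have RFX2 sites described in rodent testis. They were not called, at 0.09 (adjusted p = 0.566) and 0.22 (adjusted p = 0.0671).

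Foxj1 was higher in Mgat1 cKO germ cells by close to 2-fold. Its gene values were 6.88, 6.88 and 6.92 in Mgat1 cKO arrays and 6.04, 6.00 and 5.94 in control arrays. The arrays of a genotype lay within a narrow band and the bands were far apart. The means were 6.89 ± 0.023 in Mgat1 cKO and 5.99 ± 0.047 in control (SD, n = 3 each), with a difference of 0.90 (SE 0.060, 95% interval 0.76 to 1.04, 1.87-fold, limma adjusted p = 2.43e-05). Of its 6 probe sets, 3 were called, all 6 had a higher mean in Mgat1 cKO, and the 3 uncalled ones were 17272340 at 0.53 and the dim 17272344 and 17272345 at 0.65 and 0.15. Probe set 17272342 read 9.32, 9.49 and 9.29 in Mgat1 cKO arrays and 7.71, 7.93 and 7.89 in control arrays (difference 1.52, adjusted p = 0.00214). Probe sets 17272343 and 17272341 differed by 1.27 (adjusted p = 0.0121) and 1.29 (adjusted p = 0.0428), but 17272341 lost its call without any 1 array other than control replicate 3 (adjusted p up to 0.164). Probe set 17272343 lost it without Mgat1 cKO replicate 2 or control replicate 1 or 2 (adjusted p up to 0.0616). Without the dim probe sets the Foxj1 difference was 1.15. The diffSplice call of Foxj1 (adjusted p = 0.0234, or 0.00726 with level weights) held only without control replicate 3 among the 6 fits that left out 1 array, with adjusted p-values of up to 0.214 in the others.

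Of 27 measured motile cilium genes of the kind FOXJ1 controls, limma called 6 higher and 0 lower (8 higher and 2 lower at an unadjusted p under 0.05). The median difference was 0.08, with 6.07% of all genes called higher. The genes called were Ribc1 at 1.17 (adjusted p = 1.19e-05), Tekt4 at 0.77 (adjusted p = 9.74e-05), Tekt2 at 0.65, Ccdc19 (Cfap45) at 0.38, Tekt3 at 0.36 and Ccdc11 (Cfap53) at 0.27. The tektins, RIBC1, CFAP45 and CFAP53 are proteins of axonemal microtubules. The radial spoke gene Rsph1 and 1700003M02Rik (Cfap206) differed by −0.07 (adjusted p = 0.513) and 0.09 (adjusted p = 0.439). The 2 lower at an unadjusted p under 0.05 were Spag16 at −0.21 (adjusted p = 0.0736) and Ccdc39 at −0.17 (adjusted p = 0.159). Dim were 3 of the 27 genes. This list too was chosen with earlier results of these data known, and a response to FOXJ1 was not tested. Ribc1 averaged 7.98 ± 0.053 in Mgat1 cKO and 6.82 ± 0.084 in control (SD, n = 3 each). Markers of the motile ciliated epithelium of the efferent ducts, a tissue that also uses Rfx3 and Foxj1, were higher in 2 of 7 cases (Ccno at 0.51, adjusted p = 0.0162, and Mlf1 at 0.45, adjusted p = 0.00438) and lower in 0. Ccno lay close to the dim limit, at 5.31 ± 0.11 in Mgat1 cKO and 4.80 ± 0.17 in control (SD, n = 3 each). Dynlrb2 stands both among these markers and among the motile cilium genes. The marker list averaged 6.56 to 6.63 in Mgat1 cKO arrays and 6.46 to 6.50 in control arrays, with a median difference of −0.02 and 2 of 7 markers dim. The part of this epithelium in the Foxj1 and Rfx3 differences was not tested.

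The factors of meiotic prophase were not called. Mybl1 had gene values of 10.51, 10.56 and 10.61 in Mgat1 cKO arrays and 10.69, 10.65 and 10.65 in control arrays. All Mgat1 cKO arrays lay below all control arrays, as in 20.1% of all genes. The difference was −0.10 (SE 0.060, 95% interval −0.24 to 0.03, adjusted p = 0.326), and −0.01 with the median over probe sets. Of 18 probe sets, 15 had a lower mean in Mgat1 cKO and 0 were called by limma, with differences from −0.63 (17221165) to 0.13 (17221176). Tcfl5, a basic helix-loop-helix factor of pachytene spermatocytes, had 11.46, 11.44 and 11.44 in Mgat1 cKO arrays and 11.40, 11.45 and 11.47 in control arrays. The arrays overlapped, and the difference of 0.01 (SE 0.058, 95% interval −0.13 to 0.14, adjusted p = 0.964) changed sign without Mgat1 cKO replicate 1 (−0.0024) or control replicate 1 (−0.0135). Its 8 probe sets differed by −0.07 (17395652) to 0.10 (17395657), with 4 in each direction.

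Of 12 piRNA pathway and meiotic genes reported as bound by A-MYB, limma called 1 higher and 0 lower (2 higher and 3 lower at an unadjusted p under 0.05). The median difference was −0.06, with 6.07% of all genes called higher. The gene called was Kif17, which also stands among the cilium genes. Mael and Ddx4, which act in the piRNA pathway, differed by 0.06 (adjusted p = 0.615) and 0.01 (adjusted p = 0.951), and Ddx39, an RNA helicase gene, by −0.26 (adjusted p = 0.0932).

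Spz1, which encodes a basic helix-loop-helix zipper protein of the testis, was the gene of the set with the largest difference. Its gene values were 8.87, 8.53 and 8.88 in Mgat1 cKO arrays and 5.96, 6.18 and 6.17 in control arrays. Mgat1 cKO replicate 2 was the lowest of its genotype and still far above each control array. The means were 8.76 ± 0.20 in Mgat1 cKO and 6.11 ± 0.12 in control (SD, n = 3 each), a difference of 2.65 (SE 0.11, 95% interval 2.40 to 2.91, 6.30-fold, limma adjusted p = 1.65e-06). All 3 of its probe sets were called, at 2.54 (17294931, adjusted p = 0.000949), 2.96 (17294932, adjusted p = 0.00107) and 2.47 (17294933, adjusted p = 0.00086). Probe set 17294932 read 9.66, 9.46 and 9.61 in Mgat1 cKO arrays and 6.24, 6.75 and 6.88 in control arrays. The 3 probe sets were not found to differ among themselves (diffSplice adjusted p = 0.497).

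Nr6a1, the orphan nuclear receptor gene of round spermatids, had gene values of 7.77, 7.88 and 7.89 in Mgat1 cKO arrays and 7.56, 7.64 and 7.69 in control arrays. The arrays did not overlap, and the means of 7.85 ± 0.069 in Mgat1 cKO and 7.63 ± 0.064 in control (SD, n = 3 each) differed by 0.22 (SE 0.068, 95% interval 0.06 to 0.37). After adjustment over all genes this was not called (adjusted p = 0.0995), and it was called when limma used an intensity trend (adjusted p = 0.0427). With the median over probe sets the difference was 0.48 (adjusted p = 0.0798). Of its 21 probe sets, 0 were called by limma and 17 were higher on average. An unadjusted p under 0.05 was found in 6, a count with no background here. The differences ran from −0.19 (17384732) to 0.57 (17384721, adjusted p = 0.341).

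Of 4 genes with NR6A1 response elements described in mouse, 3 were higher and 0 lower, with a median difference of 1.86. Over all genes 6.07% were called higher, and the list was chosen with earlier results of these data known. The protamine genes also stand among the elongating spermatid markers. Prm1 and Prm2, which encode protamines, differed by 2.22 (adjusted p = 4.22e-07) and 1.84 (adjusted p = 3.98e-07), and Gpd2, the mitochondrial glycerol-3-phosphate dehydrogenase gene, by 1.87 (adjusted p = 2.03e-06). Prm2 averaged 10.42 ± 0.0075 in Mgat1 cKO and 8.57 ± 0.0084 in control (SD, n = 3 each). Pou5f1 differed by 0.07 and was not called.

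**Figure D3:**
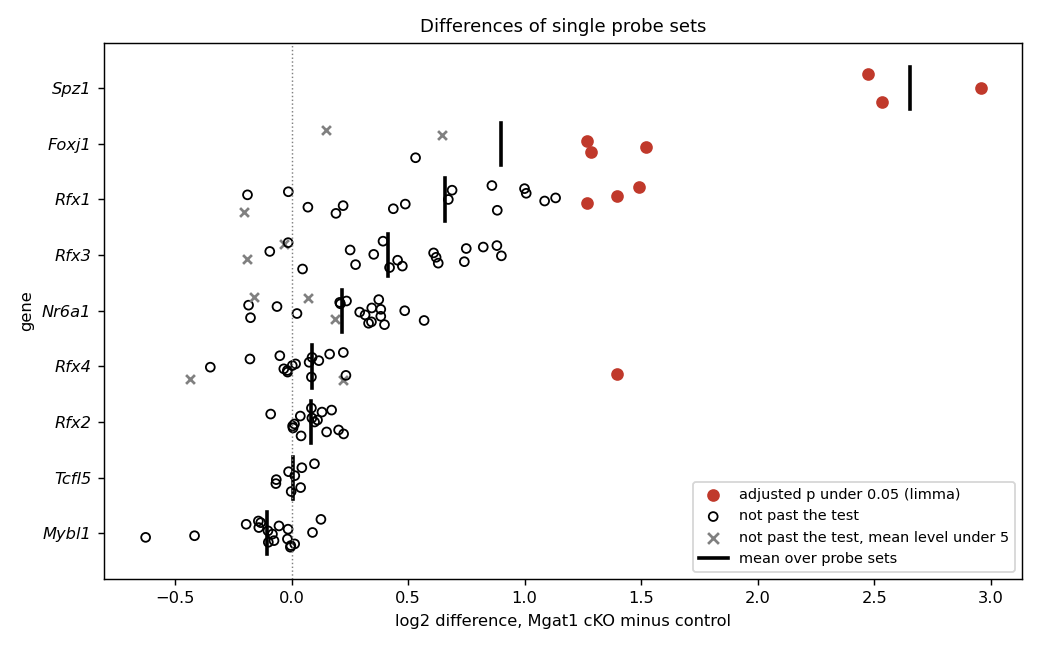
Log2 difference (Mgat1 cKO minus control) of each of the 128 probe sets of the 9 genes, 1 row per gene. Filled red points had an adjusted p under 0.05 (limma), crosses mark dim probe sets that were not called (mean under 5), and the black bar is the gene mean. Spz1 probe sets lie at 2.47 to 2.96, Rfx1 ones spread from −0.21 to 1.49, and 1 Rfx4 probe set lies at 1.40 apart from the rest.

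The genes with the array pattern most like that of each called member were found by the Euclidean distance between their 6 values, each taken from the control mean of its own gene. Nearest to Spz1 were Gm10057 (distance 0.19), Tmco5 (0.26) and Gstt4 (0.27), with differences of 2.69, 2.57 and 2.60, and 33 genes lay within a distance of 0.5. Foxj1 was nearest to 4931403G20Rik (0.088), Slc16a7 (0.11) and Gm1141 (0.12), with 322 genes within 0.5. For Rfx1 the nearest were Gm8787 (0.094), Arl11 (0.11) and 1600014K23Rik (0.13), with 423 genes within 0.5. Rfx3 had 1533 genes within 0.5, the nearest being Zmynd15 (0.090), Armc4 (0.095) and Cmklr1 (0.10). The distance takes in the size of the difference as well as its spread over the 6 arrays.

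Spermatid markers moved in the same direction as the 4 called members. Of 10 round spermatid markers, 9 were called higher and 0 lower, against 6.07% and 2.35% of all genes. The median difference of these markers was 1.36. Their array means ran from 8.08 to 8.16 in Mgat1 cKO and from 6.60 to 6.65 in control. Acrv1, an acrosomal protein gene, differed by 2.54, whereas Acr, the acrosin gene, was not called at 0.21 (adjusted p = 0.0776). All 9 elongating spermatid markers were higher, with a median difference of 2.28 and array means of 8.28 to 8.40 in Mgat1 cKO and 6.00 to 6.07 in control. Tnp2, a transition protein gene, differed by 3.33 and Gapdhs, the sperm glycolytic enzyme gene, by 2.99. In these bulk samples, more cells of a type and more RNA per cell cannot be told apart, and the part of spermatid content in the member differences was not tested.

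Spermatocyte and spermatogonial lists had 0 of 9 and 0 of 8 markers called by limma, with median differences of −0.13 and −0.14. At an unadjusted p under 0.05, 2 markers of each list were lower. At that threshold 1 spermatocyte marker (Ccna1, by 0.21) and 0 spermatogonial markers were higher. Among somatic lists, 1 of 11 Sertoli, 3 of 6 Leydig, 1 of 4 myoid and 6 of 8 epididymal markers were lower in Mgat1 cKO, and 0 of each were higher. For the counts of all lists in this paragraph, the shares of all genes called were 2.35% lower and 6.07% higher. Epididymal markers averaged 5.56 to 5.67 in Mgat1 cKO arrays and 6.28 to 6.35 in control arrays. Sertoli markers averaged 8.31 to 8.35 in Mgat1 cKO and 8.42 to 8.48 in control, Leydig markers 8.46 to 8.57 in Mgat1 cKO and 8.49 to 8.66 in control, and myoid markers 8.57 to 8.58 in Mgat1 cKO and 8.72 to 8.76 in control. Median differences were −0.11 for Sertoli, −0.26 for Leydig and −0.15 for myoid markers. The Leydig means include Insl3, which has 1 probe set and was higher by 0.80 without a call. Of 6 macrophage markers, 1 was higher (Aif1, by 1.67) and 2 lower, with array means of 6.55 to 6.66 in Mgat1 cKO and 6.40 to 6.50 in control. The median difference of the macrophage markers was −0.11, and each of them other than Aif1 had a lower mean in Mgat1 cKO. Their part in the member differences was not tested.

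Of 38 other transcription factor genes of spermatogenesis, limma called 5 higher and 0 lower (9 higher and 6 lower at an unadjusted p under 0.05). The median difference was 0.01, with 6.07% of all genes called higher. Hsfy2, a heat shock factor family gene, read 7.37 ± 0.41 in Mgat1 cKO and 4.21 ± 0.23 in control (SD, n = 3 each), a difference of 3.16 (adjusted p = 2.05e-05). Its control mean lay under 5, the limit used for dim probe sets. Fhl5, which encodes the CREM coactivator ACT, read 8.42 ± 0.037 in Mgat1 cKO and 5.85 ± 0.052 in control, a difference of 2.57 (adjusted p = 2.38e-07). Sox5 at 0.88, Hsf2 at 0.37 and Sox30 at 0.35 were also called. Hsf5 differed by 0.01 (adjusted p = 0.911).

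**Figure D4:**
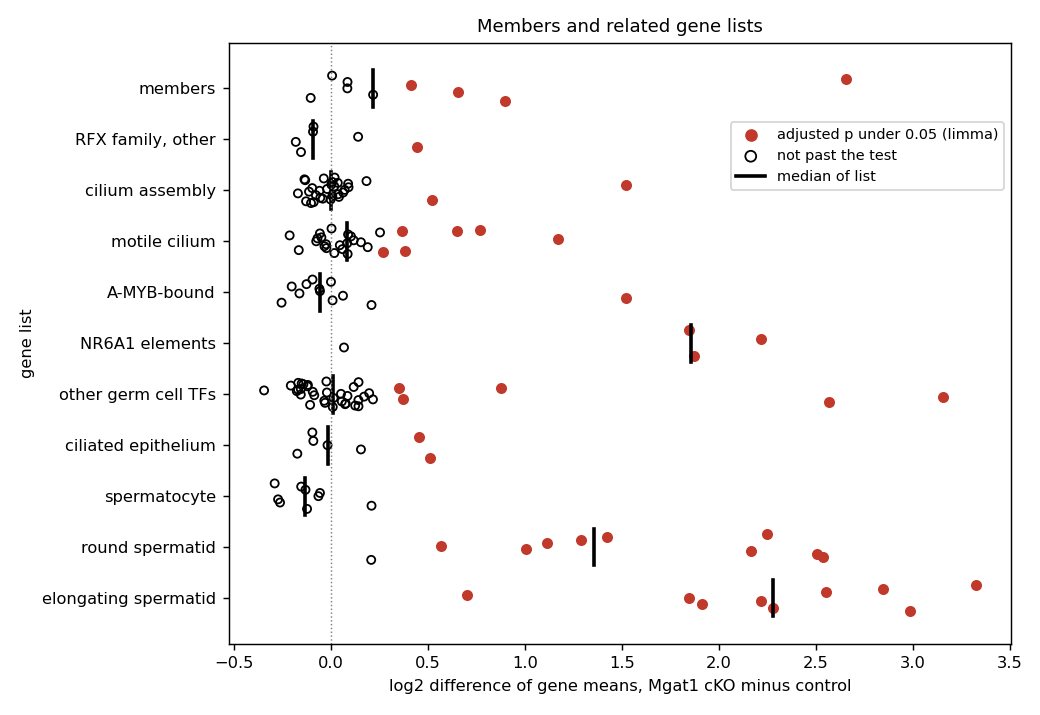
Log2 differences of gene values (Mgat1 cKO minus control) for the 9 members, 6 related gene lists and 4 marker lists, 1 point per gene. Red points had an adjusted p under 0.05 (limma), open points did not, and the black bar is the list's median. Bars of the spermatid lists lie at 1.36 and 2.28, that of the members at 0.22 and that of the cilium assembly list at 0.00.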

How the data were processed

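RNA of 23 dpp germ cells was measured on 6 arrays, 3 per genotype, grouped by the sample titles. The authors made the deposited log2 values by RMA in Affymetrix Expression Console (version not given in the sources used here), and the table of exon level probe sets was used as deposited. Quantile normalization within RMA sets all arrays to 1 distribution, so a difference is relative to the other probe sets. The gene value was the mean log2 value of its probe sets with 1 symbol. Genes and probe sets were tested with limma 3.58.1 in R 4.3.3 (lmFit and eBayes, no trend), with Benjamini-Hochberg adjustment over all 23152 genes or all 269751 probe sets, and called at an adjusted p under 0.05. Limma replaced the analysis of variance of the methods because of the few arrays, whose number limits precision. Intervals are unadjusted 95% intervals from the fit. Use of probe sets within a gene was tested with limma diffSplice over 20833 genes, and again with weights by level (vooma), chosen after seeing the data because the unweighted test called too many unchanged genes in simulated data. The scripts were tested on simulated data. Members and gene lists were chosen with earlier results of these data known. Named were all members, their probe sets that were called, extreme in difference or opposite in sign to the gene (the last by count for uncalled genes), 3 nearest genes per called member, and from each list mainly the members of largest difference or level. Alternatives were centring, repeated quantile normalization, dim probe sets left out, medians, analysis of variance, an intensity trend, a replicate block, fold thresholds and each array left out. Promoter sequences are from RefSeq (GRCm38.p6).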

Additional observations from a re-analysis of the deposited data

How the results depend on the processing

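The 4 calls among the 9 genes were kept in each fit that left out 1 array, with centring, repeated quantile normalization, dim probe sets left out, analysis of variance and the replicate block. With the median over probe sets, Rfx3 was not called (0.40, adjusted p = 0.252), Rfx4 turned to −0.10 and 1126 genes of the table were called in place of 1948. With an intensity trend, Nr6a1 was called (0.22, adjusted p = 0.0427) and 3052 genes were. A threshold of 2-fold left 1 member (Foxj1 at 0.90, Rfx1 at 0.66 and Rfx3 at 0.41 fell below it) and 594 genes, and one of 1.5-fold left 3 members (without Rfx3 at 0.41) and 962 genes. Without dim probe sets, Foxj1 was at 1.15 and thus above 2-fold. Tcfl5 turned to −0.0075 as a difference of medians over arrays, and ran from −0.0135 to 0.0199 with 1 array left out. Of the member probe sets, 10 were called, against 14 with an intensity trend, 12 without dim probe sets, 11 with centring or repeated quantile normalization, 5 by analysis of variance, 4 with the replicate block and 6 to 9 with 1 array left out. The probe sets gained were Rfx1 17503082 in the first 4 of these settings, Rfx1 17503091 with the trend and without dim probe sets, and Rfx1 17503085 and Nr6a1 17384728 with the trend. With 1 array left out, Rfx1 17503089 was gained without control replicate 3, and Rfx1 17503082 without Mgat1 cKO replicate 2. The replicate block left the 3 Spz1 probe sets and Foxj1 17272342 called, and not Rfx1 17503078 (adjusted p = 0.0677), 17503083 (0.074) and 17503090 (0.119), Foxj1 17272341 (0.158) and 17272343 (0.0655) or Rfx4 17236058 (0.124). Leaving out 1 array gave 1 to 3 members called by diffSplice, with F from 3.23 to 22.6 for Foxj1 and from 1.89 to 3.63 for Rfx4, and 1332 to 1524 genes called in all. The counts of 1 were without Mgat1 cKO replicate 2, control replicate 1 and control replicate 2. With level weights, F for Rfx4 was 1.87. The cause of these changes was not tested. Replicate numbers did not pair the arrays, since deviations of same-numbered arrays correlated at −0.06 to −0.02, and the block moved the count of genes called to 1432 and the adjusted p of Rfx3 to 0.0393. Dim probe sets limit what can be seen of Rfx6 and of parts of the member genes.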
